A study of Mus musculus with 22 samples.

Results

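EZH2 peaks of wild-type mouse embryonic stem cells were compared with the EZH2 peaks of cells in which Mtf2 is disrupted by a gene trap. The members were the 7213 regions of the wild-type EZH2 list, out of 76045 regions in the 7 peak lists of the series. Kept peaks were those that shared 1 bp or more with a gene-trap EZH2 peak, and the others are called lost. By this rule 343 peaks were kept and 6870 were lost. Gene-trap peaks that lay inside a kept peak are called residual peaks here, the bases of a kept peak outside them are called vacated, and gene-trap peaks that overlapped no wild-type peak are called gained.

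The wild-type cells were the E14 line and the other line was homozygous for the gene trap, written Mtf2 GT/GT. Both were embryonic stem cells cultured with serum and LIF, a cytokine that holds such cells in the undifferentiated state. One label field of the gene-trap libraries names E14 while another names Mtf2 GT/GT, and no parental line is stated, so genotype and line background cannot be told apart. EZH2 was precipitated with the same antibody lot in both lines. Each group had 2 libraries and 1 deposited list, so no value has an error between replicates and no test compared the lines. Intervals given below are exact Clopper-Pearson 95% intervals over peaks and cover counting error only. The lists hold positions without counts, so depth is unknown, and "lost" means that no region is listed, whatever the level of signal there.

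EZH2 is the catalytic subunit of Polycomb repressive complex 2 (PRC2), which methylates lysine 27 of histone H3 and helps to keep developmental genes silent in embryonic stem cells. MTF2 is a Polycomb-like partner of PRC2 that reads modified histone tails and binds unmethylated CpG-rich DNA through a winged-helix domain. JARID2 and AEBP2 belong to a different form of the complex, and the histone mark itself is bound by EED, a core subunit, which helps the mark to spread. H3K4me3, made by other enzymes, marks promoters, and many silent developmental promoters in these cells carry both marks. The series title asks how MTF2 brings PRC2 to DNA, and the comparison addresses which EZH2 sites are still called without it.

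The 6 residual peaks printed here show the range of DNA on which EZH2 was still called. They are the 3 with the highest and the 3 with the lowest CpG density among 100 residual peaks of at most 300 bp that lay outside exons and inside kept peaks of at least 5000 bp. Sequences are from the RefSeq GRCm38 assembly, plus strand, 5′ to 3′, with each CpG in capitals. The CpG-rich examples lie at Lmx1b (chr2:33640552-33640818, 267 bp, 44 CpG), Nr2f2 (chr7:70360985-70361147, 163 bp, 25 CpG) and Barhl2 (chr5:106458216-106458423, 208 bp, 29 CpG).
Lmx1b: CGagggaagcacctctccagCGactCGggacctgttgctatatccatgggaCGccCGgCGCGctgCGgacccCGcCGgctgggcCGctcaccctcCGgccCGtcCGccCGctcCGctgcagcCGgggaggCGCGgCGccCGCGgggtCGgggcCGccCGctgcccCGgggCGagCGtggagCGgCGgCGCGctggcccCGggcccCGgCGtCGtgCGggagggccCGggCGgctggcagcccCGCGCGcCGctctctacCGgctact
Nr2f2: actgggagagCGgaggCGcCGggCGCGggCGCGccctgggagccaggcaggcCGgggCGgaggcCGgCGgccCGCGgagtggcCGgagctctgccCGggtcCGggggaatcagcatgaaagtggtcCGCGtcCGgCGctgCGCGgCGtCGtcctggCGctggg
Barhl2: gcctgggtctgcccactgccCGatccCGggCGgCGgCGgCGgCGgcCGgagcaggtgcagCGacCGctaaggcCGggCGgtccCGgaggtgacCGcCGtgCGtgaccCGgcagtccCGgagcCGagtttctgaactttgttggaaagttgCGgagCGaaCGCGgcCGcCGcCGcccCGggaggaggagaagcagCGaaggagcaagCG
The examples without any CpG lie in an intron of Lhx2 (chr2:38349653-38349815), between genes near Nkx2-2 (chr2:147192069-147192227) and between genes near Hoxa11 (chr6:52249999-52250152).
Lhx2: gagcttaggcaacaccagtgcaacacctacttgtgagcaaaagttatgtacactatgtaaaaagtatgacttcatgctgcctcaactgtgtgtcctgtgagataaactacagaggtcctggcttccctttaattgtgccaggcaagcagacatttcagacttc
Nkx2-2: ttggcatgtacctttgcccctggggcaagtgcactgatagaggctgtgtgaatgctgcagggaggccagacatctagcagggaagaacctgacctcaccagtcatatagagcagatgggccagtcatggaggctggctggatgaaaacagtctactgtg
Hoxa11: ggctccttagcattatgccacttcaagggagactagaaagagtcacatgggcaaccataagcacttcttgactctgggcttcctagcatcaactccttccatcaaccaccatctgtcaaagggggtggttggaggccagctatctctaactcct
All 6 touched a wild-type MTF2 peak. The CpG-rich examples lay 154 to 473 bp from a transcription start site (TSS) and touched gene-trap H3K4me3. The examples without CpG lay 1025 to 5744 bp from a TSS and touched gene-trap H3K27me3 but not H3K4me3. GCG, searched on both strands, was in the 3 CpG-rich sequences. It holds a CpG itself, so the sequences chosen without CpG could not contain it. Over all residual peaks, 94.8% held GCG, against 96.4% of 26882 windows of 282 bp tiled over the wild-type EZH2 peaks.

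Few EZH2 peaks were kept, and those that were kept were mostly vacated. The 343 kept peaks were 4.76% of all wild-type peaks (4.28 to 5.27%), and this share of 4.76% is the background for the counts that follow. The kept peaks made up 17.6% of all wild-type EZH2 bases, because they were wide, with a median width of 3879 bp, while that of lost peaks was 728 bp. Of the 8626 kb of wild-type EZH2 peaks, 310.2 kb (3.60%) were still covered. Within kept peaks the covered share ranged from 2.20 to 99.7%, with a median of 16.4% and quartiles of 9.46 and 31.0%. In 36 peaks, 0.499% of all wild-type peaks, at least 50% of the bases were covered.

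What stood in place of a kept wild-type peak was mostly 1 short peak or a row of short ones. Of the 840 gene-trap peaks 800 were residual, and 786 of those lay wholly inside 1 wild-type peak. Their median width was 282.5 bp (154 to 3661 bp). A kept peak held 1 residual peak in 171 cases, 2 in 64, 3 in 38, 4 or 5 in 47, 6 to 10 in 19 and 11 or more in 4. Neighbouring residual peaks of 1 kept peak were a median of 419 bp apart, with quartiles of 162 and 968 bp. With gene-trap peaks within 300 bp merged, a kept peak held a mean of 1.78, against 2.33 unmerged. By the same 1 bp overlap rule for H3K27me3 in the same cells, 697 of 6294 wild-type peaks were kept (11.1%). A median of 44.0% of a kept H3K27me3 peak was covered. Such a peak held a mean of 1.29 gene-trap peaks, against 2.33 for EZH2. For H3K4me3, 81.3% of 27418 peaks were kept, with a median of 91.8% covered. These shares are set side by side without a test, since the lists may differ in depth and threshold.

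**Figure D1:**
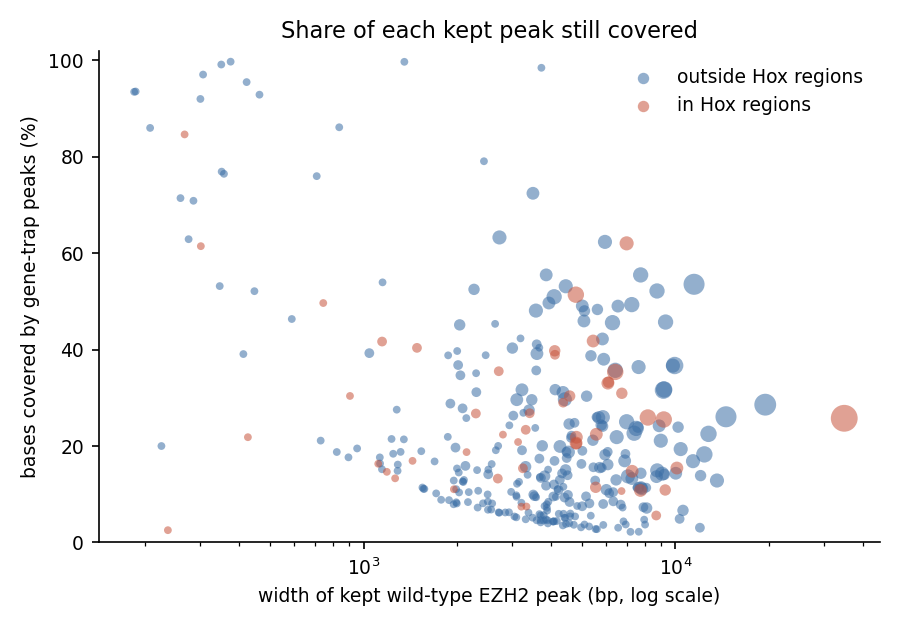
Each point is 1 of the 343 kept wild-type EZH2 peaks, with its width (bp, log scale) on the x axis and the percent of its bases covered by gene-trap EZH2 peaks on the y axis. Point size grows with the number of residual peaks, and colour marks the 4 Hox cluster regions. Most points lie under 50%, and the 17 points at 75% or more are mainly narrow peaks with a median width of 357 bp.

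The kept share was highest among wide peaks. Of the peaks under 500 bp 0.888% were kept (22 of 2477), and of those from 500 to 1000 bp 0.500% (9 of 1800). The share was 6.74% from 2000 to 3000 bp, 32.6% from 3000 to 5000 bp (27.7 to 37.7%) and 72.9% from 5000 to 10000 bp (64.5 to 80.3%). All 16 peaks of at least 10000 bp were kept. A wider peak gives a 1 bp rule more chance to be met, so the number of residual peaks was also counted per length of wild-type peak. It was 2.94 per 100 kb in peaks under 500 bp, 0.694 from 500 to 1000 bp, 1.73 from 1000 to 2000 bp, 3.85 from 2000 to 3000 bp, 16.9 from 3000 to 5000 bp, 37.3 from 5000 to 10000 bp and 49.6 in the widest. The covered share of bases over the same classes was 0.653, 0.218, 0.492, 1.42, 6.12, 16.0 and 20.3%. Without the Hox clusters the counts per 100 kb from 3000 bp up were 14.9, 34.6 and 48.5.

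**Figure D2:**
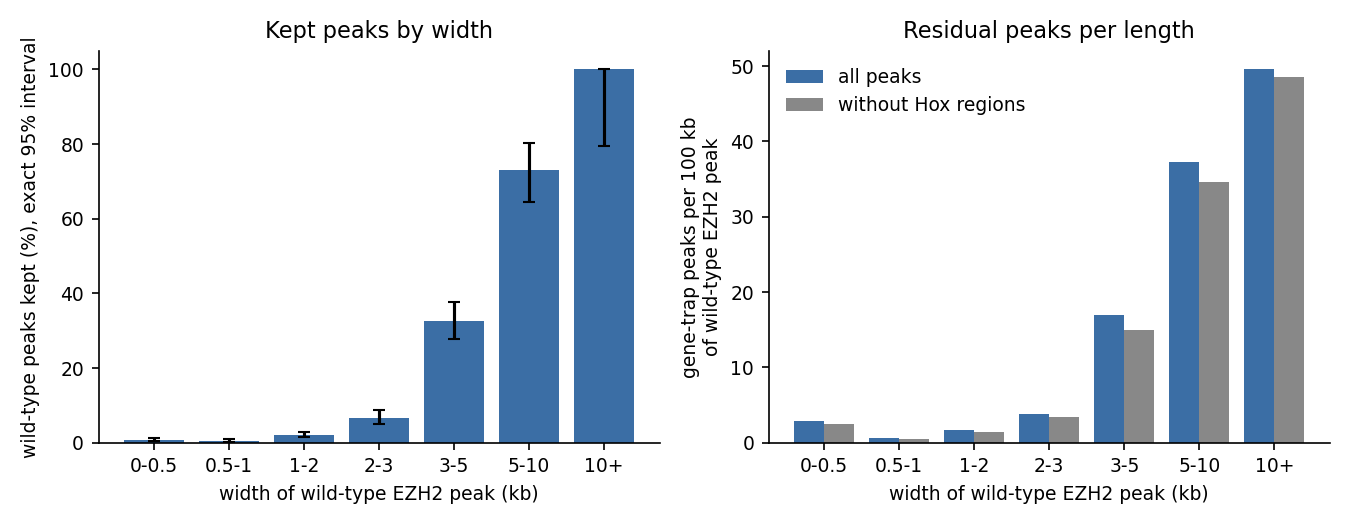
The left plot gives the percent of wild-type EZH2 peaks kept in gene-trap cells by width class, with exact 95% intervals over peaks. The right plot gives residual gene-trap peaks per 100 kb of wild-type peak in the same classes, with and without the Hox regions, and for all peaks the count per length is 16.9 or more from 3000 bp up and 3.85 or less below.

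The largest amounts of residual EZH2 were at homeobox genes, which set body axis and cell identity. The peak that runs from Hoxa3 to Hoxa10 (chr6:52201965-52236730, 34766 bp) held 20 residual peaks that covered 8954 bp, or 25.8% of it. At Otx1, a regulator of forebrain and sense organs, 12 residual peaks covered 6144 of 11473 bp (53.6%). At Six3, which specifies the forebrain and eye, 13 covered 5545 of 19404 bp (28.6%). Lhx4, a pituitary and motor neuron regulator, had 52.2% of 8728 bp covered by 6 residual peaks, and Hoxd11, a limb and posterior axis gene, 62.0% of 6974 bp by 5. Ebf3, a neuronal and muscle regulator outside the homeobox family, held 12 residual peaks in 14521 bp, and Lhx2, which patterns the cortex and eye, 8 in 9942 bp. In these peaks EZH2 was called in separate short stretches and not in 1 block. Whether weaker signal ran between the calls cannot be seen from positions alone.

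Other wide peaks were lost without any residual peak. The widest were at Mecom, a blood stem cell regulator (9991 bp), Ebf2, a regulator of neurons and brown fat (9149 bp), Sox21, a neural progenitor factor (7871 bp), Gata2, a blood progenitor factor (7808 bp), and Meis1, a Hox cofactor (7359 bp). MTF2 peaks covered 90.5 to 99.5% of these 5 wild-type peaks. Gene-trap H3K27me3 peaks still covered 54.0 to 84.3% of them. Of the 133 peaks of 5000 to 10000 bp, 36 were lost in this way. Just outside the rule were 45 lost peaks with a gene-trap peak within 500 bp, the nearest at 127 bp. Just inside it were 3 kept peaks with under 100 covered bp, the fewest being 6 bp.

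**Figure D3:**
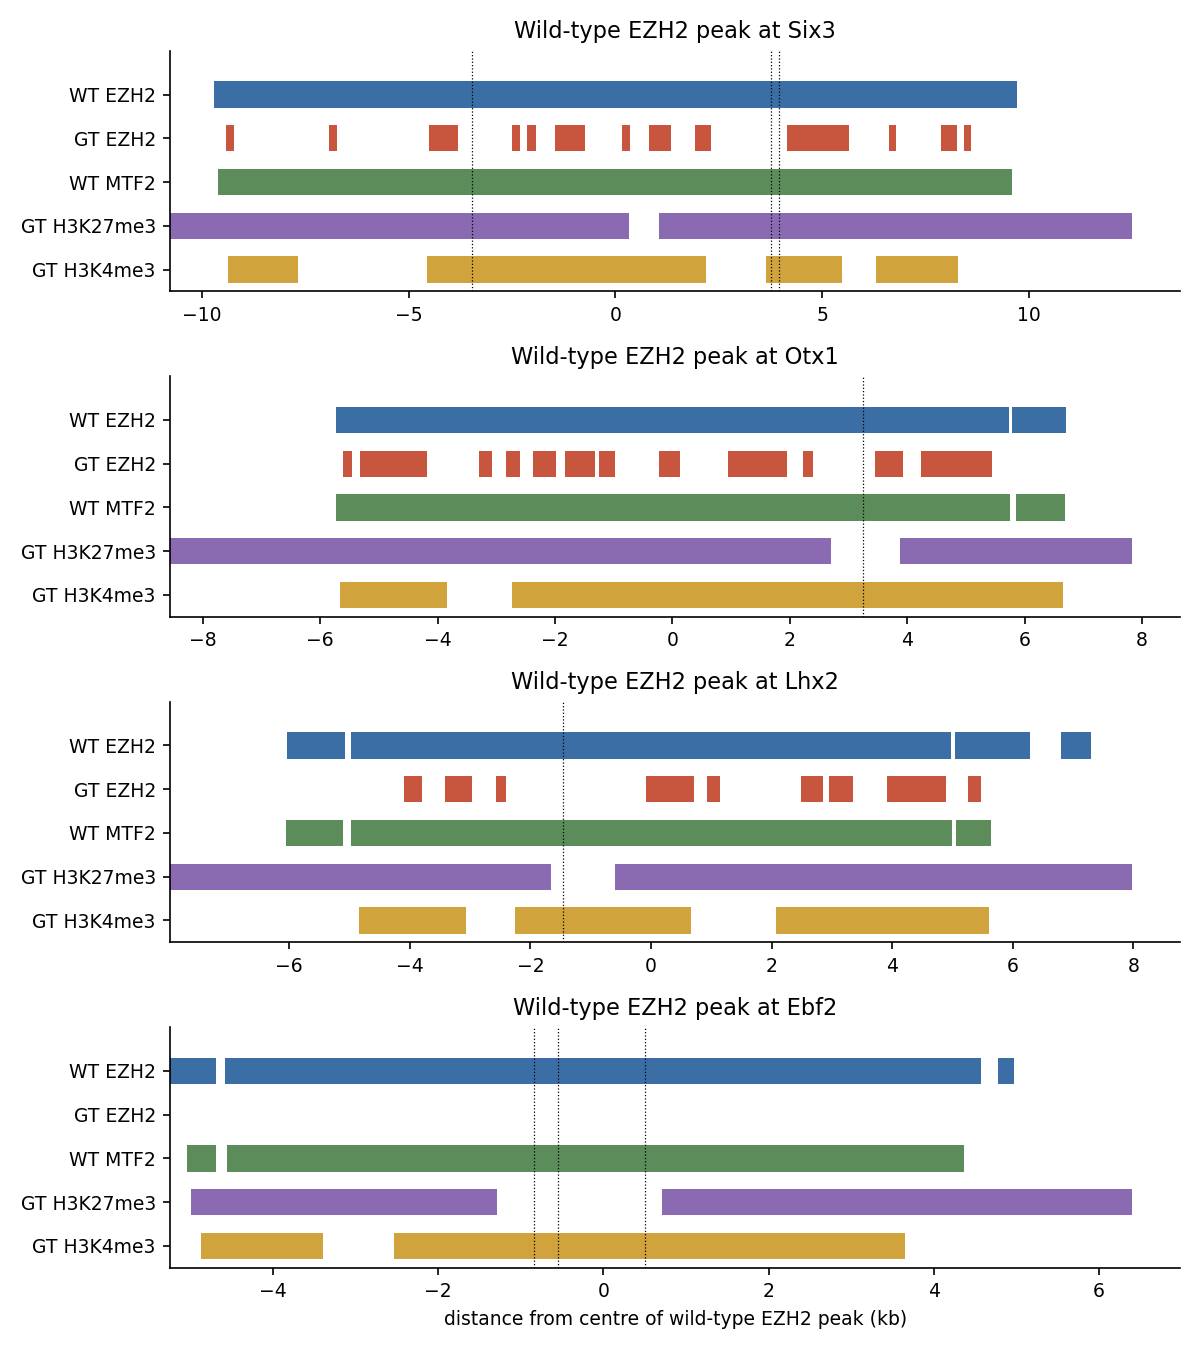
Peaks around 4 wild-type EZH2 peaks are drawn to scale, with distance from the centre of the wild-type peak (kb) on the x axis. Rows are wild-type (WT) EZH2, gene-trap (GT) EZH2, WT MTF2, GT H3K27me3 and GT H3K4me3, and dotted lines are start sites of protein-coding genes. Six3, Otx1 and Lhx2 keep 13, 12 and 8 short EZH2 peaks inside wild-type peaks of 19404, 11473 and 9942 bp, and Ebf2 keeps none in 9149 bp.

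Inside kept peaks the residual bases lay towards the centre. Over 5 equal segments along the peak, 12.8, 26.0, 26.5, 24.6 and 12.6% of the bases were covered. The median distance from a residual peak to the nearer edge of its wild-type peak was 1308 bp, and 66 of 800 lay within 100 bp of an edge. The central 50% of the peak was covered more than the rest in 254 of 343 peaks.

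Nearness to a start site gave no single direction over the windows tried. Bases within 1 kb of a TSS were covered to 20.9% and the other bases of the same peaks to 20.3%, and of 204 peaks that held both kinds 101 were higher near the TSS and 103 away from it. Within 500 bp the shares were 19.3 and 20.7% (80 peaks higher near, 117 away), and within 2500 bp 22.1 and 18.3% (115 and 50). Within 5000 bp of a TSS the direction relative to transcription did differ. From 1000 to 250 bp upstream of the nearest TSS 12.8% of bases were covered, within 250 bp 17.5%, from 250 to 1000 bp downstream 30.6% and from 1000 to 2500 bp downstream 29.2%. From 2500 to 5000 bp downstream the share was 18%, and from 2500 to 1000 bp upstream 15.4%. Beyond 5000 bp the upstream share was the higher one, at 21.4% against 19.1% downstream. Exons were covered to 26.1% and the remaining bases to 18.3%. By their centres, 230 of the 800 residual peaks (28.8%) lay at promoters. That matched the share of kept-peak bases within 1 kb of a TSS, 28.8%. Of all wild-type EZH2 peaks, most of them lost, 54.1% were centred at promoters.

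The marks measured in the same lists divided the kept peaks further. Bases inside wild-type MTF2 peaks were covered to 21.6% and bases outside them to 4.02%, a ratio of 5.37, and the inside was higher in 292 of 302 peaks that held both. MTF2 peaks took up 93.7% of kept-peak bases, and of the 95.7 kb outside them 13.8 kb lay in the central 50% of a peak. In that central part alone the covered shares were 26.5 and 8.42%, a ratio of 3.15, a comparison added after the data were seen. Of the 800 residual peaks 787 touched a wild-type MTF2 peak. Of the 1382 wild-type EZH2 peaks that touched no MTF2 peak, 8 were kept (0.579%), against 335 of 5831 with MTF2 (5.75%). The median width of these classes was 256.5 and 1006 bp, and at like width the contrast was smaller or turned in some classes. Among 5 equal classes of width, the shares without and with MTF2 were 0.427 and 1.57% in the narrowest, 0.545 and 0.743% in the next and 2.90 (2 of 69) and 0.511% in the middle one. The class above had 9 peaks without MTF2, of which 0 were kept, and the widest had 0 such peaks.

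Gene-trap H3K4me3 and residual EZH2 lay on the same bases more than apart. Of the kept-peak bases inside gene-trap H3K4me3 peaks 25.6% were covered by residual EZH2, and of those outside 10.6%. The inside was higher in 260 of 294 peaks. Beyond 1 kb of any TSS the shares were 27.5 and 10.3%. H3K4me3 peaks covered 56.8% of kept-peak bases in wild-type and 65.9% in gene-trap cells, with more in gene-trap cells at 212 peaks and less at 94. In lost peaks of at least 2000 bp H3K4me3 covered 76.9 and 80.7%.

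Gene-trap H3K27me3 extended far beyond residual EZH2. Of the 1204 kb vacated inside kept peaks, 1066 kb (88.5%) lay in gene-trap H3K27me3 peaks. Among peaks of 3000 to 5000 bp, 113 of 115 kept ones touched a gene-trap H3K27me3 peak and 139 of 238 lost ones did (58.4%). In that class gene-trap H3K27me3 covered 89.8% of the bases of kept and 40.8% of those of lost peaks. In wild-type cells H3K27me3 covered 99.9% of the bases of kept and 99.4% of those of lost peaks in this class.

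CpG density pointed in opposite directions between peaks and within them. Kept peaks as wholes were poorer in CpG than lost peaks of like width: from 3000 to 5000 bp the median was 4.09 CpG per 100 bp in kept and 5.50 in lost peaks, and from 2000 to 3000 bp 3.78 and 5.99. Inside kept peaks the residual bases were the richer ones, at 5.78 CpG per 100 bp against 4.04 in vacated bases, and they were higher in 270 of 343 peaks and lower in 72. GCG, the core of reported Polycomb-like protein motifs, followed with 4.09 and 2.73 per 100 bp. Put together for peaks of 3000 to 5000 bp, residual bases held 5.79 CpG per 100 bp, bases of lost peaks 5.70 and vacated bases of kept peaks 4.14. For 2000 to 3000 bp these values were 5.62, 6.03 and 3.67, and for 5000 to 10000 bp 5.74, 4.91 and 4.06. The lower density of kept peaks was also seen among peaks that touched a promoter (3000 to 5000 bp, medians 4.65 and 5.89) and among those that did not (3.51 and 4.42).

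Window by window, the covered share followed CpG number. Of kept-peak windows of 100 bp with no CpG 10.9% of bases were covered, with 2 or 3 CpG 15.7%, with 6 or 7 26.5% and with 10 or more 34.0%. Within MTF2 peaks alone the first and last of these were 12.2 and 34.0%. Within 1 kb of a TSS the range was 11.7 to 28.6%, reached at 8 or 9 CpG. In the central 50% of the peaks residual and vacated bases held 5.79 and 4.63 CpG per 100 bp. As the Lhx2, Nkx2-2 and Hoxa11 sequences above show, the relation was a matter of degree, and residual peaks without CpG were also called.

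**Figure D4:**
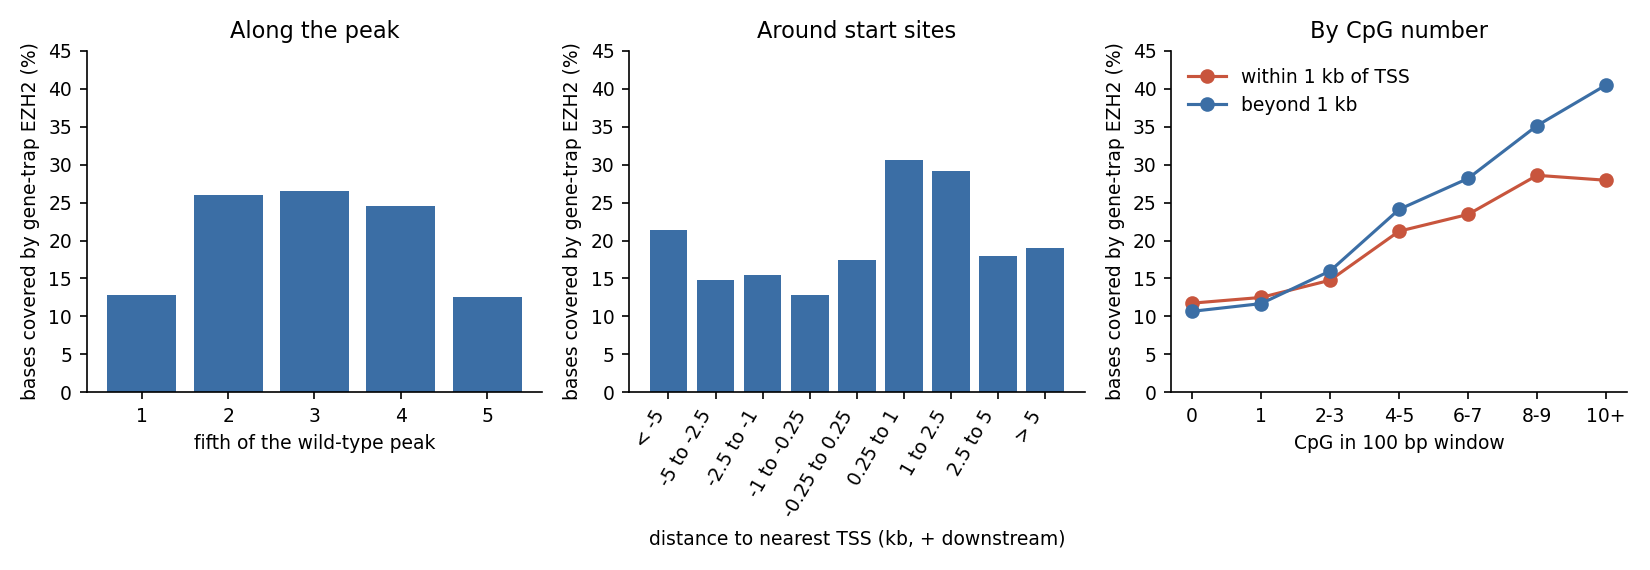
The y axis in all plots is the percent of kept-peak bases covered by gene-trap EZH2. From left to right the x axes are 5 equal segments along the wild-type peak, distance to the nearest start site of a protein-coding gene (kb, positive downstream), and CpG number in windows of 100 bp, within and beyond 1 kb of a start site. Coverage is highest in the middle segments (26.5%), from 250 to 1000 bp downstream (30.6%) and in CpG-rich windows.

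By place, a larger share of intron-centred than of promoter-centred peaks was kept. Of peaks centred within 1 kb of a TSS 2.74% were kept (107 of 3901), in exons 5.50% (55 of 1000), in introns 10.5% (93 of 883) and between genes 6.16% (88 of 1429). Over all widths, intron-centred peaks were narrower, with a median of 592 bp against 889 bp at promoters. In the widest of the 5 width classes they were wider, with medians of 3449 and 2412 bp. There 40.6% of intron-centred and 11.7% of promoter-centred peaks were kept. In the class below, with medians of 1328 and 1345 bp, 6.31 and 0.547% were kept. Kept peaks also lay together: 217 of 343 (63.3%) had another kept peak within 50 kb, against 781 of 6870 lost peaks (11.4%). Without the Hox clusters these were 57.1 and 9.79%. Joined at 50 kb, kept peaks formed 192 loci, and 10 of them held 30.2% of all covered bases. Among those 10 were the 4 Hox clusters, Pax7, Otx1, Six3 and Tfap2a.

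No EZH2 peak on the X chromosome was kept. It had 168 wild-type peaks, and 0 of 168 has an exact upper bound of 2.17% (1.79% by the limit of 3 counts). Had each width class been kept at its autosomal share, 5.58 of the 168 would have been. Wide X peaks that were lost lay near Bcor, which encodes a PRC1 partner (4597 and 3827 bp), and at Irs4 (3926 bp), Esx1 (3557 bp) and Sox3 (3490 bp). MTF2 touched 85.1% of the X peaks and 80.7% of the autosomal ones. H3K27me3 was also kept less on the X, at 2 of 115 peaks (1.74%) against 11.2% on autosomes. For H3K4me3 the kept shares were 84.9 and 81.2%.

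Of 21951 protein-coding genes 3632 had a wild-type EZH2 peak within 1 kb of a TSS. At 154 of these (4.24%) a gene-trap EZH2 peak also lay in that window, at 46 it lay elsewhere in the same wild-type peak, and at 3432 (94.5%) there was none. Gene-trap H3K27me3 was at 565 of them (15.6%). The list counts below are described beside these shares and were not tested. Over these 3632 genes the median wild-type peak was 1158 bp wide, against 4812 bp for Hox and 4427 bp for other homeobox genes. Width was not matched in the list counts, and the kept share was highest among wide peaks. Genes may share a peak, so the counts are of genes and not of independent sites.

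Hox cluster genes, which encode position along the body axis, kept EZH2 at 28 of 41 promoters, with 5 more kept elsewhere in the peak. Hoxd11 had the largest covered share (62.0%) and Hoxc9 followed (51.4%), while Hoxd4 and Hoxd8, whose peaks were 4245 and 4033 bp wide, held none. Per cluster, 17.3% of EZH2 bases were covered in HoxA, 13.9% in HoxB, 17.5% in HoxC and 19.8% in HoxD. Gene-trap H3K27me3 was at 40 of the 41 promoters. The clusters held 49 of the 343 kept peaks and 18.3% of all covered bases.

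Homeobox regulators outside the clusters kept EZH2 at 45 of 96 promoters, with 12 more elsewhere. Uncx, a somite and neuronal regulator, had 62.3% of 5944 bp covered and Pax7, a muscle stem cell factor, 55.5% of 7736 bp. Tlx3, a sensory neuron regulator, had a peak of 6419 bp with nothing left, as did Meis1. Gene-trap H3K27me3 was at 81 of the 96. Zinc finger, Ebf, Tfap2 and Sp regulators kept 16 of 33, led by Zic1, a cerebellar and neural crest factor (45.9%), and Prdm6 (29.6%). Ebf2 and Prdm13, a spinal cord and retina factor (6108 bp), kept none.

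Forkhead, T-box, GATA and Sox factors kept 12 of 43. Foxb2 had 36.4% of 7619 bp covered and Foxf1, a gut and lung mesenchyme factor, 31.7% of 9198 bp, while Sox21 and Gata2 had none. Of bHLH and nuclear receptor regulators 6 of 35 were kept, with Nr2e1 (36.7%), which maintains neural stem cells, and Nr2f2 (26.0%), a vein fate factor. Neurog1 (4885 bp) and Olig2 (4736 bp), which specify neurons and oligodendrocytes, kept none.

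At the promoter, signalling genes stood near the share over all genes, of which 4.24% were kept and 94.5% had nothing left. With residual EZH2 anywhere in the wild-type peak counted, ligands stood higher, at 13.6% against 5.51% of all genes. Among ligands 3 of 44 were kept at the promoter, including Fgf9, a growth factor (26.0% of 5584 bp), and Wnt10b (7.24%), and 38 (86.4%) had nothing left, among them the Notch ligand Dll4 (7033 bp) and the BMP-type ligand Gdf7 (5652 bp). Of 29 receptor genes 1 was kept, the growth factor receptor gene Pdgfra (8.39%), and Ntrk3 (3740 bp) and Fzd1 (3229 bp) were lost. Of 19 genes in the list of antagonists and R-spondins, the latter being enhancers of Wnt signalling, 0 were kept. They include the activin antagonist Fst (4143 bp) and the BMP antagonist Nog (2564 bp). The median peak width was 2430.5 bp for ligands, 1605 bp for receptors and 1498 bp for antagonists and R-spondins. These widths were below those of Hox (4812 bp) and other homeobox genes (4427 bp) but above the 1158 bp of all genes.

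Genes of differentiated neurons kept 3 of 52 (5.77%, near the 4.24% of all genes), among them the potassium channel gene Kcnk9 (17.5%) and Gad1, which makes the transmitter GABA (12%). Kcna1 (3779 bp) and Adra2c (3287 bp) were lost. The 4 cyclin-dependent kinase inhibitors with a wild-type peak were lost, as were 94.5% of all genes, including Cdkn1c (2433 bp) and Cdkn2a (2392 bp). PRC1, the other main Polycomb complex, kept 3 of 9, with Bmi1 (38.8% of 2464 bp) and Cbx8 (26.9% of 3254 bp), and lost Bcor and Pcgf5. Of PRC2 partners Phf19 (548 bp) and Aebp2 (211 bp) had a wild-type peak and both were lost. Mtf2, Ezh2, Eed, Suz12 and Jarid2 had no EZH2 peak at the promoter in wild-type cells and had H3K4me3 in both lines. Outside all lists 37 of 3219 genes were kept (1.15%).

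**Figure D5:**
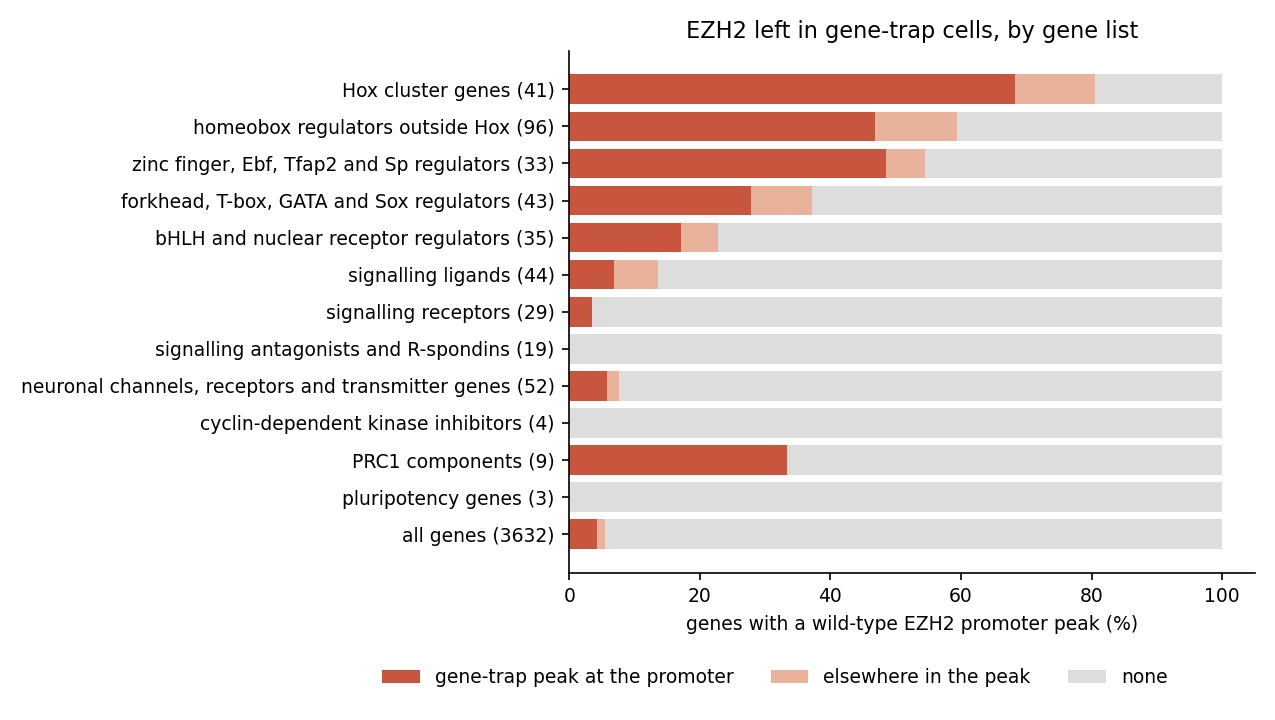
Bars give, for each gene list, the percent of genes with a wild-type EZH2 promoter peak (their number in brackets) that had a gene-trap EZH2 peak at the promoter, elsewhere in the same wild-type peak, or none. Hox genes have 28 of 41 at the promoter and signalling antagonists and R-spondins 0 of 19, against 4.24% of all 3632 genes.

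A small set of kept peaks differed from the rest. Of the 17 peaks covered on at least 75% of their bases, 12 were under 500 bp wide, 13 touched no gene-trap H3K27me3 and 12 touched gene-trap H3K4me3. Of the other 326 kept peaks 9 touched no gene-trap H3K27me3. Of the 13, 3 were neighbours on chromosome 17, at chr17:39843113-39848797 near Esp38. They overlapped annotated long noncoding RNAs, and the wider 2 an annotated ribosomal RNA gene. Their 5445 bp were covered to 98.9%, lay wholly in MTF2 peaks, and had no H3K4me3 peak in wild-type cells and H3K4me3 on at least 98.4% of each in gene-trap cells. Whether reads of repeated copies were placed there was not tested. Without the 22 kept peaks that lacked gene-trap H3K27me3, 321 were kept.

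Gained peaks were few and unlike the residual ones. None of the 40 touched an MTF2 peak, 33 touched gene-trap H3K27me3 and 10 wild-type H3K27me3. Gained peaks lie outside wild-type EZH2 peaks by definition. Within kept peaks, MTF2 took up 93.7% and wild-type H3K27me3 99.7% of the bases. The MTF2 and wild-type H3K27me3 counts are therefore in part set by the sorting. The median CpG density of gained peaks was 0.678 per 100 bp, against 5.14 for residual peaks. Repeat-masked sequence made up over 50% of 14 of the 40, and of 5 of the 800 residual peaks. The widest gained peak, of 1312 bp, lay in an intron of Tmem267. Other wide ones lay between genes, with Tcstv1 (1085 and 916 bp) and Tmco5 (900 bp) as the nearest named genes. Their distances to the TSS were 138603, 136223 and 320836 bp. The gained peaks fell in 18 loci. Those with most held 8 peaks nearest to Tcstv1 (chr13:120029614-120037971), 6 at Tmem267 (chr13:119596608-119603496), 6 nearest to Tmco5 and 4 at Coil. The 6 nearest to Tmco5 also had H3K27me3 in wild-type cells, and of the 14 on chromosome 13 just named 1 did. One gained peak of 234 bp overlapped Tmed5 and Mtf2 itself, with neither mark in gene-trap cells, and is named here after its values were seen. A gained peak was also called at the promoter of Tbx3, a T-box factor.

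Markers of cell identity were read as promoters with H3K4me3 and without H3K27me3. Of 10 embryonic stem cell markers 9 had this state in both lines, the exception being Esrrb. It was found at 0 of 8 fibroblast, 1 of 8 primitive endoderm and 0 of 8 trophoblast markers in wild-type cells, and at 3, 4 and 3 in gene-trap cells. H3K4me3 was at the same number of these promoters in both lines (3, 8 and 7) while H3K27me3 was at 3, 7 and 7 of them in wild-type and at 0, 4 and 4 in gene-trap cells. The part of other cell types in the EZH2 differences was not tested.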

How the data were processed

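Chromatin immunoprecipitation and sequencing were carried out by the authors with 2 libraries per group, read in reads of 75 bases per the labels. The submitters' processing notes name BWA 0.7.10-r789, MACS2 2.7 and CASAVA, without their roles, and the build mm10 (GRCm38). The deposited lists hold chromosome, start and end in bp, with no score or count. Their names carry the words MAnorm and unbiased, and the peak threshold, the control and the way libraries were combined are not given in the sources used here. Nor is it given whether regions that differed between libraries were left out, which could lower the number of gene-trap peaks and the kept shares.

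From these positions were computed overlaps, covered bases, and CpG and GCG counts in the RefSeq GRCm38 sequence, with Python 3.11.15 and numpy 2.4.6, checked on simulated intervals. Promoters were within 1 kb of any protein-coding TSS in the basic GENCODE annotation. Introns, exons and the rest follow it, with promoters taken first. Intervals came from scipy 1.17.1.

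The members, the gene lists and the tests were chosen with earlier results of these data known. Named genes were, per list, the 2 kept with the largest covered share and the 2 widest lost. Over all peaks they were the 5 with most covered bases, the 5 with most residual peaks, the 5 with the largest covered share from 1000 bp, the 5 widest lost and the 5 widest gained, passing over predicted genes. PRC2 core genes, Mtf2 and Jarid2 were always named. The values of some genes that the rule takes are not reported here. Alternatives changed the overlap rule, width minimum, promoter window and Hox clusters. The central part for MTF2 and gene-trap H3K4me3, the nearly fully covered peaks, CpG by promoter and leaving out peaks without gene-trap H3K27me3 were added after the data were seen. Other series libraries were not used here.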

Additional observations from a re-analysis of the deposited data

How the results depend on the processing

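Stricter rules lowered the number of kept peaks from 343 to 36 when at least 50% of the wild-type peak had to be covered, to 113 when regions under 500 bp were dropped from both lists, and to 191 with gene-trap peaks of at least 300 bp alone. The covered share of wild-type EZH2 bases was 2.50% with gene-trap peaks of at least 300 bp alone and 3.06% without the Hox clusters. Of all genes with a wild-type EZH2 promoter peak, 3.23% were kept with a window of 500 bp, 5.24% with 2500 bp and 5.51% when residual EZH2 at any place in the wild-type peak counted. With at least 50% covered, 4.56% of H3K27me3 and 77.2% of H3K4me3 peaks were kept. The ratio of covered shares inside and outside MTF2 peaks was 3.15 in the central 50% of each peak. Of 35 settings tried on results other than gene lists 11 moved a count or ratio by over 1.5 times or a share outside its exact interval (over bases for the covered share), and of 48 on gene lists 3 did, all for homeobox regulators (35.4, 58.3 and 59.4%). The ratio near to away from a TSS was 1.03, and turned to 0.931 within 500 bp and 0.982 without the Hox clusters. No paired analysis was possible because each group has 1 list, and for the same reason no replicate could be left out. Depth is unknown, so the shortest calls are the least certain.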
